A study of Mus musculus with 6 samples.

Results

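The genes described here are 43 genes of DNA replication and S phase, chosen by name among the 20665 genes of the deposited table. They share a function in copying DNA, and all 43 were found, each under 1 gene identifier. They cover origin licensing (10 genes), activation of the replicative helicase (6), priming and fork polymerases (6), the sliding clamp with its loader and the single-strand binding protein (8), lagging strand joining with base repair (3), nucleotide supply (4), chromatin and histone mRNA handling (2), and the E cyclins with E2F factors (4). RNA sequencing of total RNA was done on primary fibroblasts grown from the gum (gingiva) of WT C57BL/6 mice. In 3 libraries the cells had received light of an Er:YAG laser, an infrared dental laser, at 3.9 J/cm2 onto a 35-mm dish from 25 cm away. In the other 3 the cells were not irradiated. The cells of all 6 libraries grew in serum-containing medium and carry the label 3 h, and the stated aim was the early influence of the laser.

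A cell copies its genome once per division, in S phase. Origins are licensed in G1, when the origin recognition complex, Cdc6 and Cdt1 load the ring-shaped MCM helicase onto DNA; Cdc45 and the GINS complex then turn the ring into an active helicase, and polymerases copy both strands while the Pcna clamp holds them on the template. Most of these genes are transcribed in late G1 and S phase under E2F factors, so their summed mRNA level in a culture is widely read as a sign of how many cells are cycling.

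Recovered gene-assigned reads numbered 45178137 to 59904715 per library, and mitochondrially encoded genes took 1.85% to 2.01% of them. Values below are normalized counts, reads per gene divided by 1 size factor per library, and in lists of values libraries run in the order 1, 2, 3 of their labelled replicate numbers. Of the fibroblast markers 12 of 12 were in the table, at a summed 2056288 to 2964698 normalized counts in irradiated and 1868864 to 3155099 in non-irradiated libraries. Against this, 4 of 6 epithelial markers summed to 19.2 to 91.0 in irradiated and 15.5 to 22.3 in non-irradiated libraries, with Krt5 and Krt14 not in the table. The 3 of 6 leukocyte markers measured summed to 74.1 to 203 in irradiated and 106 to 236 in non-irradiated libraries, and the 4 of 4 endothelial markers to 131 to 226 in irradiated and 82.8 to 235 in non-irradiated libraries. No marker of these lists passed the test for irradiation. The labels do not tell whether each library had its own animal or culture, and the p-values therefore reflect the scatter of these 6 libraries, which may be partly technical. Libraries with the same number in both groups deviated together, so irradiation was tested within pairs of the same number with limma.

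No replication gene passed the test for irradiation. In limma with the replicate number as a block, 0 of 43 passed an adjusted p of 0.05, beside 3 of 16141 genes tested (0.0186%). At an unadjusted p under 0.05 there were 2 of 43, Gins2 and Rpa2, or 4.65%, beside 3.26% of all genes. No replication gene passed in edgeR, DESeq2 or voom with the block either, with 2, 1 and 2 at an unadjusted p under 0.05, and in the authors' deposited table none passed 0.05 after adjustment, while 0.159% of 15051 genes did. The log2 fold change of irradiated over non-irradiated was positive for 21 genes and negative for 22, with a median of -0.008 and a range of -0.32 to 0.43. The median of all genes tested was 0.005. The median over the 43 genes was -0.032, -0.077 and 0.062 in pairs 1, 2 and 3, so the pairs lay on both sides of 0.

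The intervals of the fold change, which reflect the scatter between these libraries, were narrow for most of the genes. Their limma SE draws on the variance of all genes tested, not only on the gene's own scatter over 2 residual degrees of freedom. In limma without a trend the unadjusted p of Gins2 was 0.12, against 0.021 in the fit reported. The 95% interval of the log2 fold change lay within 0.5 either side of 0 for 36 of 43 genes, and within 1 for 43 of 43. The 7 with wider intervals were Gins1, Gins2, Gins3, Rpa2, Ung, Fen1 and E2f2. Of these, E2f2, Ung and Gins1 also rested on few reads, 27 to 65, 168 to 300 and 138 to 365 per library, whereas Rrm1 had 7531 to 11702. Irradiated libraries were higher in 3 of 3 pairs for 5 genes (11.6%, beside 11.8% of all genes) and lower in 3 of 3 pairs for 8 (18.6%, beside 11.0%). The values of the groups did not overlap for Gins2 and Gins3, which is 4.65% of the genes beside 4.73% of all genes. These shares describe the list and do not test it.

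**Figure D1:**
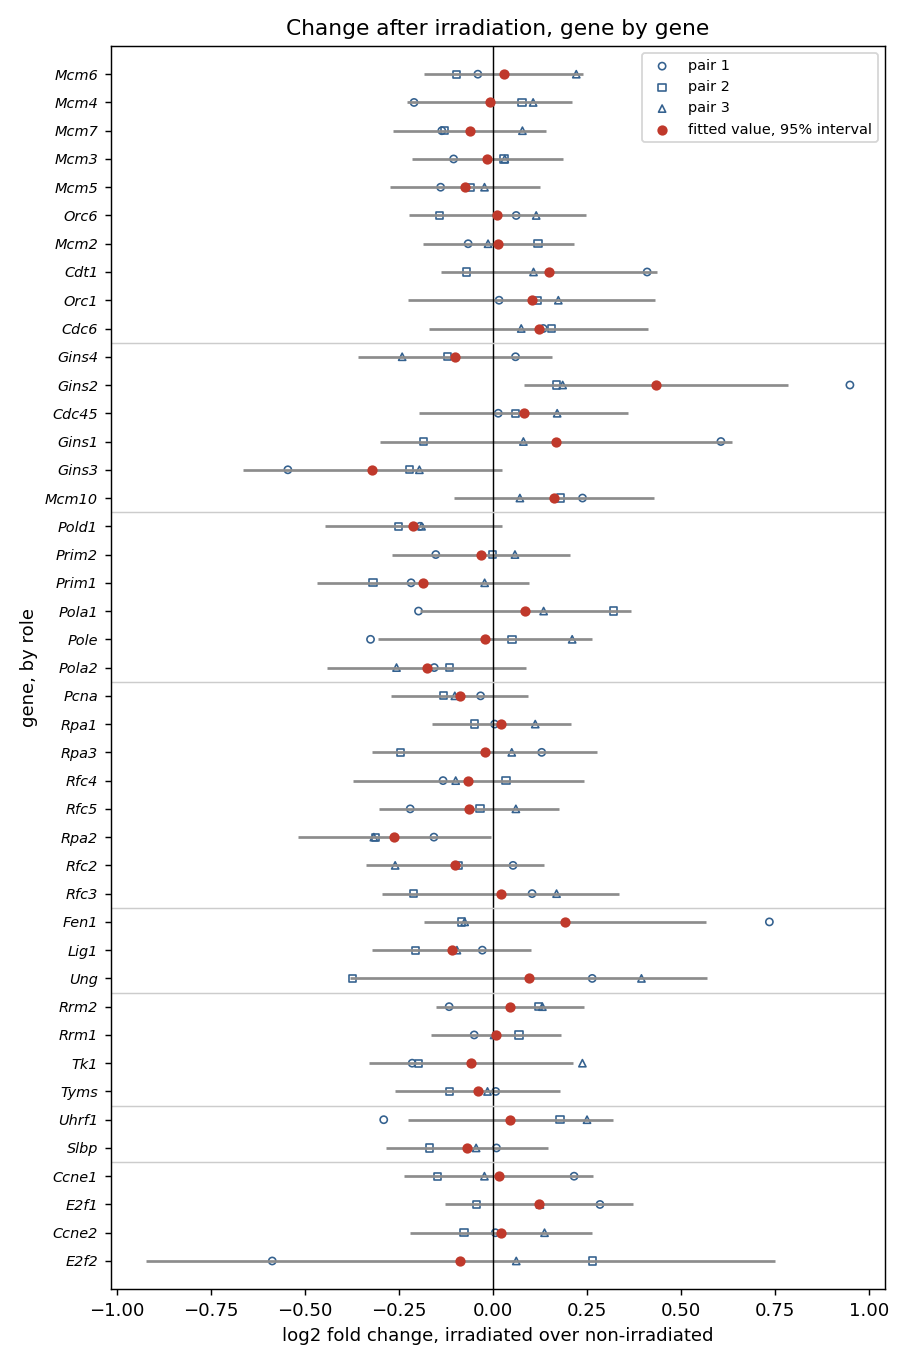
Log2 fold change of irradiated over non-irradiated (x axis) for each of the 43 genes, grouped by role; open symbols are the 3 pairs of same-numbered libraries, filled points the fitted value and bars its 95% interval from limma. The bars of 41 genes cross 0, and the largest single pair values are those of pair 1 for Gins2 (0.95) and Fen1 (0.74).

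Origin licensing genes differed little between the groups, at log2 fold changes of -0.07 to 0.15 and a median of 0.013 for the 10 genes. Cdt1, which brings the MCM ring to the origin, had 1031, 1134 and 962 normalized counts in irradiated libraries, against 776, 1191 and 892 in non-irradiated libraries. The groups overlapped, and most of the excess came from pair 1. Its log2 fold change was 0.15 ± 0.13 (SE), with a 95% interval of -0.14 to 0.44. Mcm6, a subunit of the ring and the licensing gene of highest level per length, had 3815, 5193 and 4589 in irradiated and 3921, 5552 and 3934 in non-irradiated libraries. Library 2 was the highest of each group, and the log2 fold change was 0.03 ± 0.09 (SE). The other ring subunits Mcm2, Mcm3, Mcm4, Mcm5 and Mcm7 had log2 fold changes of 0.01, -0.01, -0.01, -0.07 and -0.06. Orc1 and Orc6, subunits of the origin recognition complex, had 0.10 and 0.01, and Cdc6, the loader that joins that complex, 0.12.

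The promoters of these genes were searched for the E2F-type motif. As most genes of this kind are under E2F factors, a raised share was likely in advance. Its link to their levels was not tested. RefSeq windows on GRCm38.p6, from 250 bases before to 50 bases after the gene start, matched 35 of 43 genes with 41 windows, since some genes have several annotated starts; Pole, Rfc2, Gins4, Gins1, Gins2, Ccne2, Mcm4 and Prim2 had none. The motif was searched as TTTGGCGC, TTTCCCGC, TTTCGCGC or TTTGCCGC on both strands, with overlaps between matches allowed. At least 1 window with a match was present for 14 of 35 genes (40.0%), against 2.60% of all 27025 genes with a window and 4.58% of the 11104 of them tested here. Counted by window it was 14 of 41 (34.1%), against 2.26% of all 32851 windows and 3.77% of the 14203 windows of tested genes. The 14 were Cdc6, Cdt1, E2f2, Gins3, Lig1, Mcm3, Mcm5, Mcm6, Mcm7, Orc1, Pola1, Pold1, Rfc3 and Uhrf1, with 7 of them licensing genes. A match is a description of letters in the window, not evidence of binding. The windows of 5 licensing genes follow 5′ to 3′ along the gene, with motif matches in capitals; they lie at chr4:108579204-108579503 on the plus strand for Orc1, chr11:98907901-98908200 on the plus strand for Cdc6, chr1:20820263-20820562 on the minus strand for Mcm3, chr8:75109259-75109558 on the plus strand for Mcm5 and chr1:128359656-128359955 on the minus strand for Mcm6.
Orc1: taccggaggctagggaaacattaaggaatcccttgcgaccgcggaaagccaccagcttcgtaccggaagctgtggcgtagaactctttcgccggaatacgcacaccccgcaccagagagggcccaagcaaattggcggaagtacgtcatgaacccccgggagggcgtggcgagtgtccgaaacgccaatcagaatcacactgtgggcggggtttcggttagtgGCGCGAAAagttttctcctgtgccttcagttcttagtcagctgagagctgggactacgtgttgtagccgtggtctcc
Cdc6: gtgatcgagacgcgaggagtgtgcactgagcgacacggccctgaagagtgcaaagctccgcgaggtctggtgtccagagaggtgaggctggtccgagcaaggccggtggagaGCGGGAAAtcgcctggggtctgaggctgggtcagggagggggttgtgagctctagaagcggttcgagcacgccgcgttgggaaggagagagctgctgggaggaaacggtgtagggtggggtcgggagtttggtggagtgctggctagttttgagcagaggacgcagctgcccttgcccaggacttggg
Mcm3: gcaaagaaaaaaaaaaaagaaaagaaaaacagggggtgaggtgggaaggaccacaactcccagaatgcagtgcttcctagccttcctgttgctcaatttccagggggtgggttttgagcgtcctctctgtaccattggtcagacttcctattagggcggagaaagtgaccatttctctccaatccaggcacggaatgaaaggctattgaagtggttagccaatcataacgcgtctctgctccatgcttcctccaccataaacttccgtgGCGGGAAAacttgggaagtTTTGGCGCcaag
Mcm5: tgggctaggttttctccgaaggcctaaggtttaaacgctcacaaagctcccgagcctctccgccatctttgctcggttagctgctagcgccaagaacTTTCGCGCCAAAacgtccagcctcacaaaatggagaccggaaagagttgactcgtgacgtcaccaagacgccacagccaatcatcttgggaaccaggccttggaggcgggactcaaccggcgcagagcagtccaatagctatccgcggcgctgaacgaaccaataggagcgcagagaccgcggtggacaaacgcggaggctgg
Mcm6: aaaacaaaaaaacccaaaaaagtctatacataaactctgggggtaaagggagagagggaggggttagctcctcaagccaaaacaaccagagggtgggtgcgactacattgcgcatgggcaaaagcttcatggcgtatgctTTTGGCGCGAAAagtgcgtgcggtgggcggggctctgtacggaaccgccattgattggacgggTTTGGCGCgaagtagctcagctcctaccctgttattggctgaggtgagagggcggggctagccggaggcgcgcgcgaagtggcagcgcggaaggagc
In Mcm5 and in the upstream match of Mcm6 the capitals are longer than 8 bases because matches on both strands overlap. In Mcm3 both matches lie after the gene start, and in the other windows all lie before it.

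Genes of helicase activation held the widest spread of fold changes, -0.32 to 0.43 over 6 genes. Gins2 and Gins3, subunits of the same GINS complex, lay at its ends, in opposite directions. Gins2 had 2622, 2069 and 1955 normalized counts in irradiated libraries, against 1357, 1840 and 1719 in non-irradiated libraries, or 2215 ± 357 and 1639 ± 251 (SD, n = 3 each). All irradiated values were above all non-irradiated ones, and library 1 was the highest of the irradiated and the lowest of the non-irradiated. The log2 fold change was 0.43 ± 0.15 (SE), with a 95% interval of 0.08 to 0.79 and an adjusted p of 0.995 in limma. By pair it was 0.95, 0.17 and 0.19, and without pair 1 it was 0.18. In the authors' deposited table it was 0.43 with an SE of 0.16 and an adjusted p of 1.

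Gins3 had 283, 391 and 380 normalized counts in irradiated libraries, against 414, 457 and 435 in non-irradiated libraries. All irradiated values were below all non-irradiated ones, and irradiated library 1 was the lowest. Its log2 fold change was -0.32 ± 0.15 (SE), with a 95% interval of -0.67 to 0.02 and an adjusted p of 0.995 in limma. Mcm10, which helps to start unwinding, had 642, 987 and 830 in irradiated and 544, 872 and 790 in non-irradiated libraries. It was higher in 3 of 3 pairs, yet the groups overlapped, and the log2 fold change was 0.16 ± 0.12 (SE; 95% interval -0.10 to 0.43). Gins4, the GINS gene of highest level per length, had 1031, 1173 and 847 in irradiated and 989, 1275 and 1001 in non-irradiated libraries, with a log2 fold change of -0.10 ± 0.11 (SE). Cdc45 and Gins1 had log2 fold changes of 0.08 and 0.17.

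Gins2 also shares most of its exon bases with another gene, as does Fen1, which encodes the flap endonuclease that trims lagging strand fragments. In GENCODE M21 on GRCm38, 2758 of 4097 Gins2 exon bases (67.3%) overlap exons of Gse1 on the opposite strand. Likewise 1909 of 2422 Fen1 exon bases (78.8%) overlap exons of Gm10143. In the other 41 genes the largest overlap was 17.4%, between Ccne2 and Ints8. The strand setting of the authors' counting is not given in the sources used here, so whether reads of overlapping genes were separated is not known.

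Fen1 had 1050, 1805 and 1385 normalized counts in irradiated libraries, against 630, 1913 and 1459 in non-irradiated libraries. Non-irradiated library 1 was the lowest of the 6, and the log2 fold change was 0.74 in pair 1 but -0.08 and -0.07 in pairs 2 and 3. Gm10143 had 20.8, 55.8 and 72.2 in irradiated libraries, against 470, 18.3 and 14.4 in non-irradiated libraries, so that its single high value fell in the library where Fen1 was lowest. Added together, Fen1 and Gm10143 had 1071, 1861 and 1457 in irradiated and 1101, 1932 and 1473 in non-irradiated libraries, with pair values of -0.04, -0.05 and -0.02. Fen1 alone had a fitted log2 fold change of 0.19 ± 0.16 (SE), and the sum averaged -0.04 ± 0.01 (SEM of 3 pairs). The SE comes from limma and the SEM from the pair values alone, so these errors are not comparable.

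Gse1 had 4815, 4770 and 4746 normalized counts in irradiated libraries, against 6842, 3148 and 4772 in non-irradiated libraries. It was highest in non-irradiated library 1, where Gins2 was lowest. Gins2 and Gse1 together had 7437, 6840 and 6700 in irradiated and 8199, 4988 and 6491 in non-irradiated libraries. The pair values of this sum were -0.14, 0.46 and 0.05, averaging 0.12 ± 0.18 (SEM), and not of 1 sign. Gse1 had more counts than Gins2 in each library, so this sum mainly follows Gse1. It therefore cannot tell whether reads of Gins2 were misassigned. These sums were added after the values were seen, and the part of the overlap in the Gins2 and Fen1 differences was not tested further. Without Gins2 and Fen1 the median log2 fold change of the remaining 41 genes was -0.014.

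**Figure D2:**
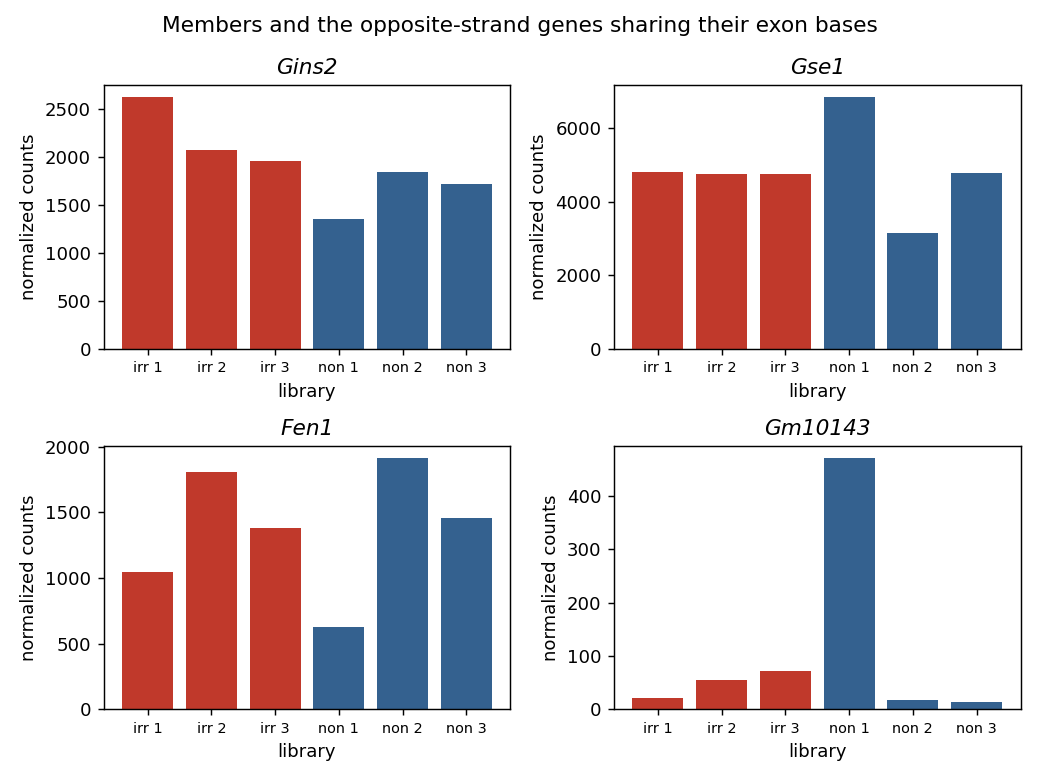
Normalized counts (y axis) of Gins2 and Fen1 and of the opposite-strand genes that share most of their exon bases, in irradiated libraries 1 to 3 (irr, red) and non-irradiated libraries 1 to 3 (non, blue). In non-irradiated library 1 both replication genes are at their lowest, 1357 and 630, and both partners at their highest, 6842 and 470.

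For the 6 polymerase and primase genes the median log2 fold change was -0.103, and 3 of them were lower in 3 of 3 pairs, none of them past the adjusted threshold. Pold1, the catalytic subunit of the polymerase that copies the lagging strand, had 871, 1375 and 999 normalized counts in irradiated libraries, against 996, 1634 and 1139 in non-irradiated libraries. Within each pair the irradiated value was the lower one, while across pairs the groups overlapped. The log2 fold change was -0.21 ± 0.10 (SE), with a 95% interval of -0.45 to 0.02 and an adjusted p of 0.995 in limma; leaving out non-irradiated library 2, without the block, gave -0.0049. Prim1, the catalytic primase subunit that makes the RNA starters, had 530, 800 and 706 in irradiated and 617, 998 and 717 in non-irradiated libraries. Pola2, the accessory subunit of the polymerase that works with primase, had 631, 846 and 692 in irradiated and 703, 917 and 826 in non-irradiated libraries. Both were lower in each pair with overlapping groups, at log2 fold changes of -0.19 ± 0.12 and -0.18 ± 0.12 (SE). Pola1, the catalytic subunit of that polymerase, Prim2, the large primase subunit, and Pole, the leading strand polymerase, had log2 fold changes of 0.09, -0.03 and -0.02.

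For the clamp, its loader and the single-strand binding protein (8 genes) the median log2 fold change was -0.065. Rpa2, the middle subunit of replication protein A, which coats single-stranded DNA, had 687, 993 and 749 normalized counts in irradiated libraries, against 766, 1234 and 933 in non-irradiated libraries. It was lower in 3 of 3 pairs with overlapping groups, and the log2 fold change was -0.26 ± 0.11 (SE; 95% interval -0.52 to -0.0046; adjusted p = 0.995 in limma). Leaving out non-irradiated library 2, without the block, gave -0.08. The partner subunits of the same complex, Rpa1 and Rpa3, had log2 fold changes of 0.02 and -0.02. Pcna, the sliding clamp, had 4234, 5854 and 4865 in irradiated and 4330, 6414 and 5217 in non-irradiated libraries. It was slightly lower in each pair, at -0.09 ± 0.08 (SE), and the 95% interval ran from -0.27 to 0.09. The clamp loader genes Rfc2, Rfc3, Rfc4 and Rfc5 had log2 fold changes of -0.10, 0.02, -0.07 and -0.06. A processed copy, Pcna-ps2, is listed separately at 91.9, 92.9 and 49.1 in irradiated and 57.5, 84.2 and 61.8 in non-irradiated libraries, far below Pcna itself.

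Among the remaining genes, Lig1, the ligase that seals lagging strand fragments, had 1655, 2440 and 2105 normalized counts in irradiated libraries, against 1687, 2813 and 2249 in non-irradiated libraries. It was lower in each pair with overlapping groups, at a log2 fold change of -0.11 ± 0.09 (SE). Ung, which removes uracil from DNA, had a log2 fold change of 0.10 with a wide 95% interval of -0.38 to 0.57. Rrm2, the S phase subunit of ribonucleotide reductase, had 4126, 8525 and 7594 in irradiated and 4472, 7836 and 6930 in non-irradiated libraries. Its groups overlapped widely, at 0.05 ± 0.09 (SE). Rrm1, the large subunit, Tyms, which makes thymidylate, and Tk1, which salvages thymidine, had log2 fold changes of 0.01, -0.04 and -0.06. Uhrf1, which guides maintenance DNA methylation behind the fork, had 1716, 2955 and 2837 in irradiated and 2098, 2610 and 2384 in non-irradiated libraries, at 0.05 ± 0.12 (SE). The pairs of Uhrf1 disagreed in sign.

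Upstream of these genes, Ccne1, an activator of Cdk2 at S phase entry, had 1251, 1566 and 1425 normalized counts in irradiated libraries, against 1077, 1734 and 1447 in non-irradiated libraries. The groups overlapped, and the log2 fold change was 0.02 ± 0.11 (SE). Ccne2, its paralogue, had 0.02, and the activating factors E2f1 and E2f2 had 0.12 and -0.09. E2f2 was the least certain of all, with a 95% interval of -0.92 to 0.75. Slbp, which binds the stem-loop of replication-dependent histone mRNAs, had a log2 fold change of -0.07 ± 0.09 (SE). Of 52 replication-dependent histone genes, 31 passed the filter on low values, and 0 passed the test for irradiation in limma; their log2 fold changes spread from -0.92 to 1.78 with a median of 0.02.

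What did differ was the replicate number, and it did so in 1 direction. In the moderated F-test of replicate number in the same limma fit, 24 of 43 genes passed (55.8%), beside 13.4% of all genes. In each of the 24 the fitted level was highest at number 2. Thus 24 of 43 genes (55.8%) both passed and were highest at number 2, beside 3.67% of all genes. Among all genes, 593 of the 2165 that passed were highest at number 2. Counting without a test, 41 of 43 genes (95.3%) were highest in library 2 of both groups, beside 18.9% of all genes; the exceptions were Gins2 and Ung in the irradiated group. Library 1 was the lowest of both groups for 37 genes (86.0%), beside 20.0% of all genes. For 38 genes (88.4%) both number 2 libraries stood above the other 4, beside 14.6%. Genes of 1 pathway in the same 6 libraries are not independent, so these shares describe the libraries and give no test of the list.

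In size the difference was well above that of irradiation. The fitted log2 difference of number 2 minus number 1 had a median of 0.56 over the 43 genes and a range of 0.05 to 1.26, against a median of -0.00 over all genes. Number 3 lay between, 0.24 above number 1 and 0.33 below number 2 in the median. The difference was present in each group alone: library 2 over library 1 had a median log2 ratio of 0.58 in irradiated and 0.62 in non-irradiated libraries, with 42 and 43 of 43 genes positive. For 41 of 43 genes the number 2 to number 1 difference was larger in size than the irradiation difference, with Gins2 and Gins3 as the exceptions.

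**Figure D3:**
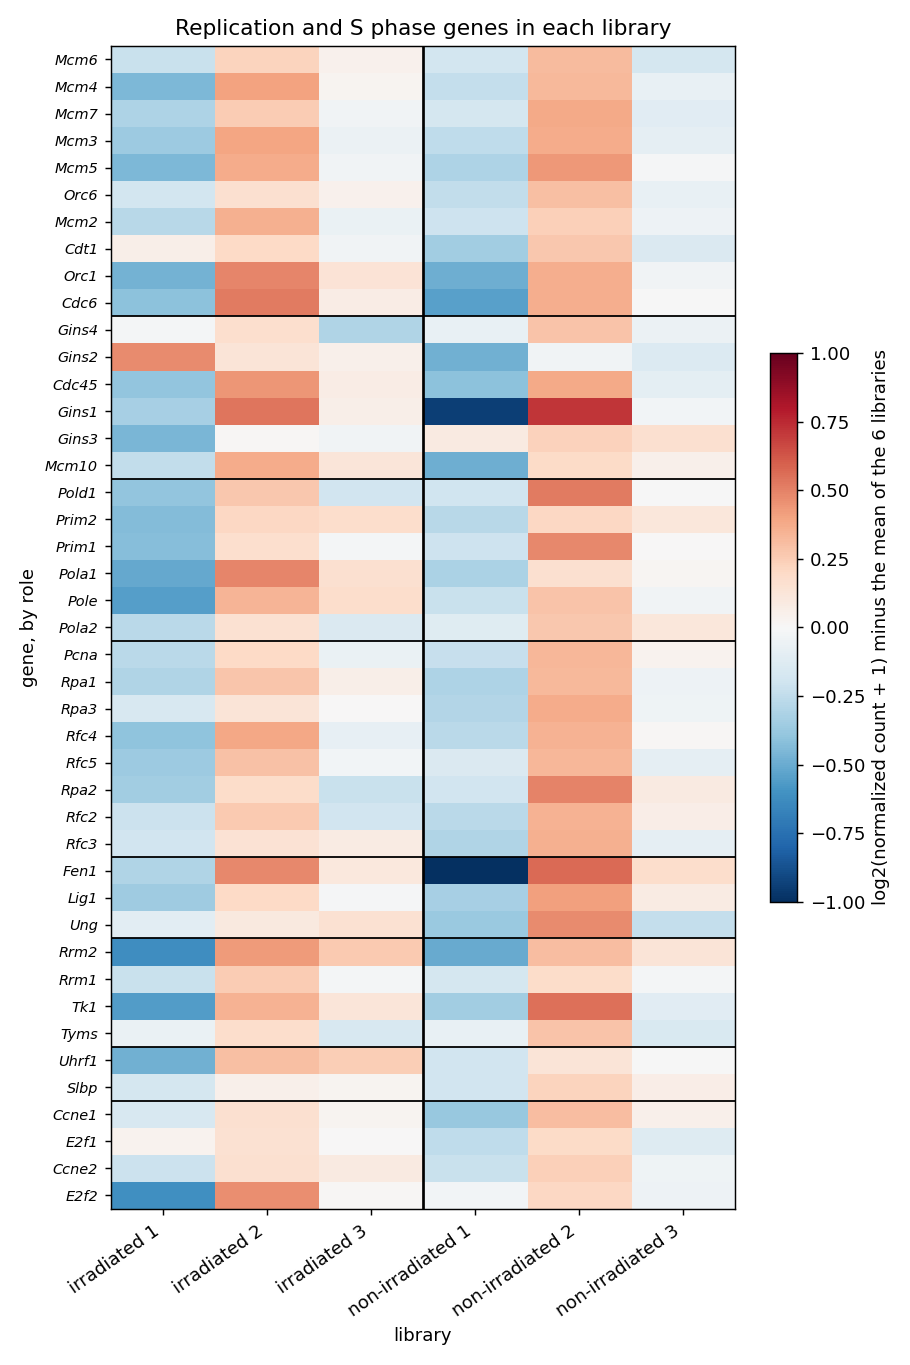
Level of each of the 43 genes (rows, grouped by role) in each library (columns), as log2(normalized count + 1) minus the mean of the 6 libraries; red is above and blue below that mean, with the scale ending at 1 either side. The columns of library 2 are mostly red and those of library 1 mostly blue in both groups, with Gins2 in irradiated library 1 (2622 normalized counts) as an exception.

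**Figure D4:**
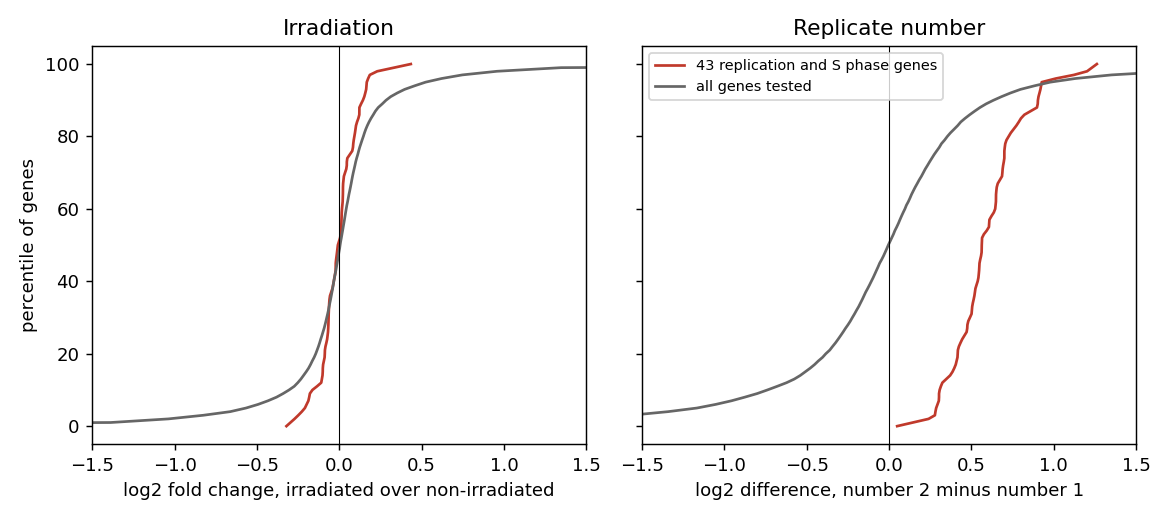
Percentile of genes (y axis) against the log2 fold change of irradiated over non-irradiated (left) and the log2 difference of number 2 minus number 1 (right), for the 43 genes (red) and all genes tested (grey). On the left both lines cross 0 near their middle, with medians of -0.008 and 0.005; on the right the red line lies wholly above 0, from 0.05 to 1.26.

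Rrm2 had the smallest p between replicate numbers. Its 8525 and 7836 normalized counts in irradiated and non-irradiated libraries of number 2 compared with 4126 and 4472 in those of number 1, a fitted 1.90-fold ratio (log2 0.93, adjusted p = 0.00133 in limma). Mcm5 had 1995, 3516 and 2655 in irradiated and 2196, 3667 and 2696 in non-irradiated libraries, with a log2 difference of 0.78 (adjusted p = 0.00502). The order of the libraries, 1 below 3 below 2, was the same in both groups for both genes. Mcm3 had 2159, 3649 and 2658 in irradiated and 2321, 3575 and 2600 in non-irradiated libraries, with a log2 difference of 0.69 (adjusted p = 0.00885). Tk1 had 1026, 1928 and 1647 in irradiated and 1190, 2212 and 1396 in non-irradiated libraries (0.90, adjusted p = 0.0116). Rpa1 had 4426, 6612 and 5701 in irradiated and 4411, 6840 and 5272 in non-irradiated libraries (0.61, adjusted p = 0.0121). In each of these, too, library 2 was highest and library 1 lowest of both groups.

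The rise at number 2 ran through most roles. It was called for 7 of 10 licensing genes (median log2 difference of number 2 minus number 1, 0.63), 3 of 6 helicase activation genes (0.48), 4 of 6 polymerase and primase genes (0.66) and 5 of 8 clamp, loader and single-strand binding genes (0.55). It was also called for 2 of 3 lagging strand and repair genes (0.65) and 3 of 4 nucleotide supply genes (0.66). None of the 4 E cyclin and E2F genes (0.46) and neither Uhrf1 nor Slbp (0.44) passed, although their differences had the same sign; Uhrf1 passed in 3 alternatives. Genes with an E2F-type motif in the promoter window passed in 8 of 14 cases, with a median log2 difference of 0.65, and those without one in 11 of 21, with 0.54. The test depends on the pair left out. Without pairs 1, 2 and 3, 6, 12 and 27 of the 43 genes passed, each beside 24 with all pairs. Of all 16141 genes, 1345, 2579 and 2132 passed in these fits, beside 2165 with all pairs. In limma without a trend 0 of 43 passed, with 24 at an unadjusted p under 0.05, beside 64 of all 16141 genes passing. With the block, edgeR, voom and DESeq2 called 26, 27 and 27 of the 43. Of all genes they called 2036, 2290 and 2728.

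Other genes also moved with the replicate number. Number 2 libraries did not stand apart in depth, with 50452261 and 47441483 recovered reads in the irradiated and non-irradiated library, and their mitochondrial shares were 1.87% and 1.85%. Of the fibroblast markers 8 of 12 differed between numbers (66.7%, beside 13.4% of all genes). Only 1 of these, Lum, had its highest fitted level at number 2, and in the irradiated group its library 3 was higher. Of the leukocyte and endothelial markers 1 each also differed, both highest at number 1: Lyz2 had 157.5, 100.8 and 43.3 normalized counts in irradiated and 186, 92.3 and 67.4 in non-irradiated libraries, and Kdr had 184, 92.0 and 55.8 in irradiated and 185, 90.3 and 42.0 in non-irradiated libraries. Genes named next were chosen after their values were seen. Col3a1, a fibrillar collagen gene, had 298103, 114441 and 98309 normalized counts in irradiated and 326117, 109529 and 89796 in non-irradiated libraries, highest at number 1. Postn, a matrix protein gene, was likewise highest at number 1, with 178574, 70200 and 90377 in irradiated and 201186, 65868 and 76580 in non-irradiated libraries. Lum, a small proteoglycan gene, had 50.3, 994 and 1063 in irradiated and 59.2, 1119 and 782 in non-irradiated libraries, lowest at number 1. Of the 4 epithelial markers measured, Krt8, Krt18 and Epcam were highest in irradiated library 2, at 41.1, 30.3 and 13.7. In non-irradiated library 2 they were at 0, 4.06 and 4.06. Cdh1 was at 5.87 in irradiated library 2, against 13.1 in irradiated library 1, and at 14.2 in non-irradiated library 2. Of the 4 markers only Cdh1 passed the filter on low values, and it did not pass the test between numbers. The part of these differences in the replication gene pattern was not tested, and what the numbers stand for is not stated. In bulk RNA, more cells in S phase and more of these mRNAs per cell cannot be told apart.

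Further genes of the same processes gave a like picture for irradiation and a weaker, less uniform one between replicate numbers. Of 68 other replication and S phase genes, none passed for irradiation in limma, with a median log2 fold change of 0.01. In 3 of 3 pairs 7 were higher and 8 lower, beside 11.8% and 11.0% of all genes. Those with the smallest p in their lists were Mcm9, a helicase of recombination repair, at 0.32, Orc5, an origin recognition subunit, at -0.26, and Tfdp2, a partner of E2F factors, at 0.32. Rnaseh2a and Rnaseh2c, subunits of the enzyme that removes RNA from DNA, had -0.17 and -0.19, Shmt1, which feeds thymidylate synthesis, -0.26, and Rrm2b, the reductase subunit used outside S phase, 0.19. The histone chaperones Asf1a and Asf1b had -0.11 and 0.14, and Dtl, which directs Cdt1 to destruction, 0.18. None of these passed. Over the 68 the difference of number 2 minus number 1 had a median of 0.34 and a range of -0.36 to 1.01. Library 2 was the highest of both groups for 44 of the 68, beside 18.9% of all genes. Between replicate numbers 15 of the 68 passed (22.1%, beside 13.4% of all genes), again each with number 2 highest. Cdc7 and Dbf4, the kinase and its activator that fire licensed origins, were among them. Cdc7 had 247, 534 and 428 normalized counts in irradiated and 289, 538 and 453 in non-irradiated libraries, and Dbf4 had 1703, 2707 and 2322 in irradiated and 1687, 2637 and 2069 in non-irradiated libraries. Both were highest in library 2 of each group.

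Mitosis genes shared the pattern between libraries. Of 24 tested, 0 passed for irradiation in limma, with a median log2 fold change of -0.016, and 18 passed between replicate numbers (75.0%), all highest at number 2, with a median difference of 0.64. Foxm1, a regulator of mitotic genes, and Ttk, a spindle checkpoint kinase, had the smallest p for irradiation, at log2 fold changes of 0.19 and -0.18. Top2a, which untangles replicated chromosomes, had 8152, 14195 and 13205 normalized counts in irradiated and 9224, 13094 and 12096 in non-irradiated libraries, again lowest in library 1 and highest in library 2 of each group. The histone genes did not show it: 0 of 31 differed between numbers in the limma F-test. Their differences of number 2 minus number 1 spread widely, from -2.75 to 1.10, with a median of -0.28. Only these 31 of the 52 histone genes passed the filter on low values. Whether their counts follow S phase in these libraries was not tested.

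Levels differed between the 43 genes far more than between libraries. Divided by the length of the exon union of each gene, Rrm2 was the highest, at a mean of 2375 normalized counts per kb over the 6 libraries, followed by Pcna at 2147. Next came Rpa1 at 994, Mcm6 at 965, Mcm4 at 964 and Rrm1 at 879 normalized counts per kb, whose ranges over libraries overlapped. At the low end stood Pola2 at 92.7, Ung at 40.9 and E2f2 at 9.60. E2f1, which like E2f2 encodes an activating factor, stood at 409. Subunits of 1 complex were not at equal levels: per kb, Gins4 had 780, Gins2 470, Gins1 159 and Gins3 145, while the MCM ring genes ran from 451 for Mcm2 to 965 for Mcm6. The exon lengths take in all annotated transcripts, so a gene with a long, rarely used exon is understated.

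**Figure D5:**
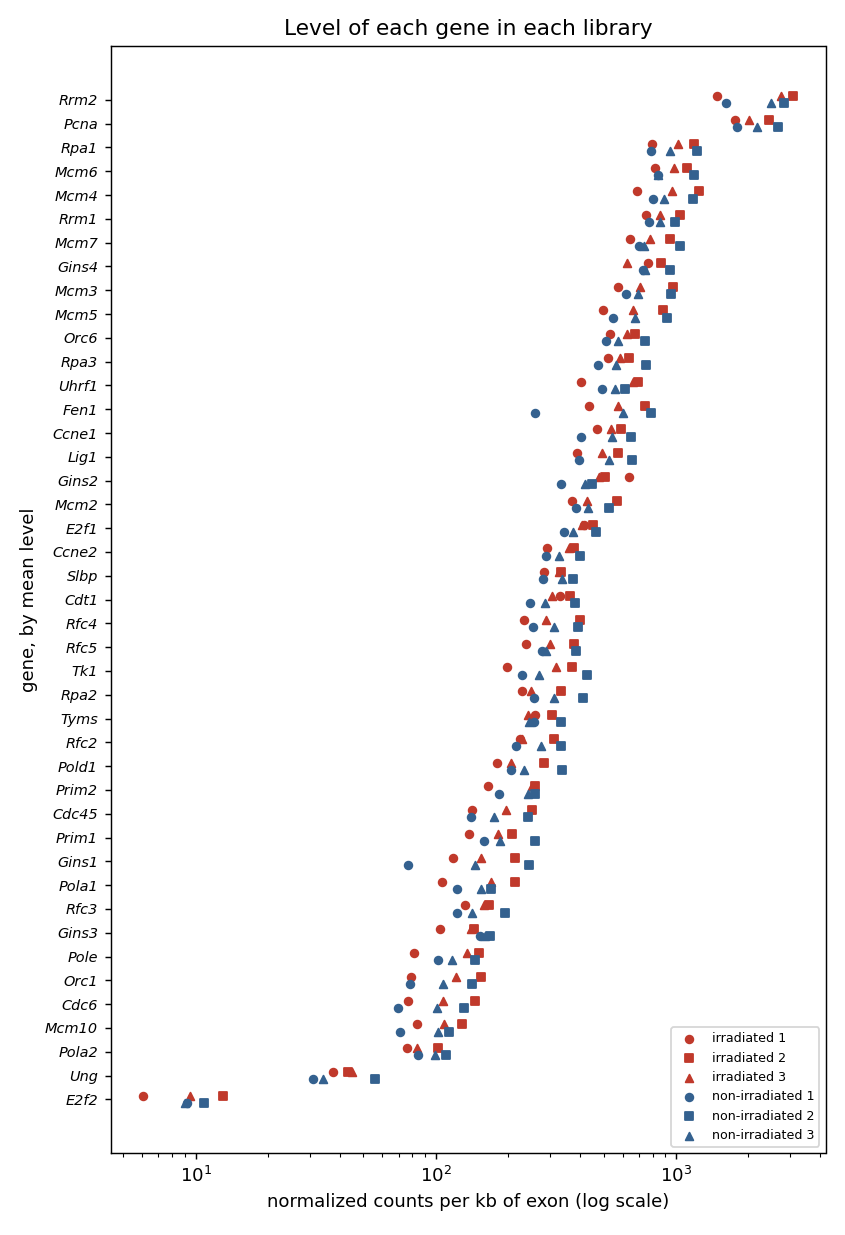
Normalized counts per kb of exon on a log scale (x axis) for the 43 genes, ordered by mean level; red symbols are irradiated and blue non-irradiated libraries, with circles, squares and triangles for numbers 1, 2 and 3. Squares lie to the right for nearly all genes in both groups, from Rrm2 at a mean of 2375 down to E2f2 at 9.60.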

How the data were processed

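RNA sequencing covered 6 libraries, 3 per group, grouped by sample title. The submitters' processing notes name HISAT2 2.2.1, StringTie 2.1.7, Trimmomatic 0.39, FastQC 0.11.9 and build GRCm39. Their order, settings and strand handling, and the annotation release, were not given in the sources used here. Per the file headers, the authors deposited normalized counts (a signal: reads per gene over a size factor of the library) and DESeq2 results, which comprise a log2 fold change with SE, a score as test statistic, and p-values before and after adjustment. Of 20745 rows 80 repeated an identifier and were dropped. No other column of per-sample values was present.

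Genes reaching 10 normalized counts in 3 or more libraries (16141, all 43 members among them) were tested in R 4.3.3 with limma 3.58.1 (lmFit, eBayes with trend) on log2(normalized count + 1), with replicate number as a block, 2-sided, Benjamini-Hochberg adjusted over all genes, threshold 0.05; 2 residual degrees of freedom remain, 4 without the block. Fold changes on this scale understate low genes. The replicate number was tested by the moderated F-test of the same fit. Numbers come from the sample titles; over 13054 genes, deviations from group means correlated at 0.642, 0.474 and 0.567 between same-numbered libraries and at most 0.013 between others, so the numbers were taken to pair the libraries. A DESeq2 1.42.0 refit with the block came within 0.000861 of each deposited log2 fold change. Whole reads were recovered for 100% of values within 0.001 and used for edgeR 4.0.16, DESeq2 and voom, which called 2, 24 and 3 genes for irradiation. The scripts were tested on simulated data.

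Exon lengths and overlaps came from GENCODE M21 (GRCm38) and promoters from RefSeq (GRCm38.p6), another build than the authors'. Overlapping genes and near-identical copies are uncertain. Values in each library are given for the 10 members of smallest p for irradiation, the 6 of smallest p between replicate numbers and the member of highest level per kb in each role; of each further list, the 2 of smallest p are named. Members and lists were chosen with earlier results of these data known. Alternatives were pseudocounts of 0.5 and 5, no filter or a filter of 50, 3 scalings, limma without trend or robust, no replicate block, other tools, and left-out pairs or libraries.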

Additional observations from a re-analysis of the deposited data

How the results depend on the processing

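No replication gene passed for irradiation in any of the settings run, including the authors' deposited results. Without the replicate block 0 of 43 passed, with 1 at an unadjusted p under 0.05 (Gins2; Rpa2 no longer), the median log2 fold change stayed at -0.008, and 0 genes of the whole table passed; the block changed no call of a replication gene for irradiation. The median ranged from -0.053 to 0.014 over left-out pairs and, without the block, from -0.145 (without non-irradiated replicate 1) to 0.146 (without non-irradiated replicate 2), with 0.138 and -0.137 without irradiated replicates 1 and 2. Equal library totals moved it to -0.034 and that of all genes to -0.020. Single genes turned sign when libraries were left out: Prim1 ran from -0.34 to 0.01, Mcm10 from -0.04 to 0.33, Lig1 from -0.30 to 0.07 (0.04 without irradiated replicate 1) and Fen1 from -0.28 to 0.52 (-0.08 without pair 1, -0.0016 without irradiated replicate 2), and Fen1 summed with Gm10143, added after seeing the data, was -0.04. Others kept their sign but moved by over 1.5 times: Gins2 ran from 0.18 to 0.57, Gins3 from -0.41 to -0.17, Rpa2 from -0.42 to -0.08, Pold1 from -0.40 to -0.0049, Pola2 from -0.29 to -0.08 and Cdt1 from 0.01 to 0.32. The count between replicate numbers, 24, was 10 with no filter, 0 without a trend and 6 to 27 over left-out pairs. In the other settings it was 23 to 28, and the cause was not tested. Over all genes the count was 2165 in the fit reported, 1154 with no filter and 64 without a trend. Over left-out pairs it was 1345 to 2579. Mcm6 passed between numbers in 10 alternatives and Uhrf1 in 3 (equal library totals, without replicate 3, DESeq2), though not in the fit reported. With 2 residual degrees of freedom and the replicates unexplained, changes smaller than the intervals given could not be detected.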

Other observations

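D cyclin and CDK inhibitor genes varied between libraries in several ways. Of 12 D cyclin and CDK inhibitor genes 6 differed between replicate numbers in limma, and 0 of them had their highest level at number 2. Among all 12, none was highest in library 2 of both groups, and 4 were lowest in library 1 of both groups, as most replication genes were. The inhibitor genes Cdkn2b, Cdkn2a, Cdkn1c and Cdkn1b were highest at number 1, while Ccnd1 and Ccnd2 were highest at number 3. Cdkn2b had 1650, 811 and 764 normalized counts in irradiated libraries 1, 2 and 3, against 1554, 1011 and 970 in non-irradiated ones (log2 difference of number 2 minus number 1, -0.82). Cdkn1c had 294, 74.4 and 123 in irradiated and 163, 60.9 and 99.4 in non-irradiated libraries (-1.69), and Cdkn2a had 3488, 1362 and 1494 in irradiated and 2611, 1553 and 1885 in non-irradiated libraries (-1.05). Ccnd1, which encodes cyclin D1, had 11367, 12953 and 16363 in irradiated and 10620, 12624 and 17300 in non-irradiated libraries, lowest in library 1 of both groups (0.22). Cdkn1a, a p53 target, had 13191, 13472 and 16321 in irradiated and 12378, 13619 and 14581 in non-irradiated libraries and passed neither test. For irradiation 0 of the 12 passed; Cdkn1c and Cdk6, the kinase partner of D cyclins, had the smallest p, at log2 fold changes of 0.48 and 0.34. Cdkn2a, Cdkn2b, Cdkn1b, Cdkn1a, Ccnd1 and Ccnd2 were chosen after their values were seen.

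In the promoter windows, 22 of 35 replication genes held CCAAT (62.9%), against 41.1% of all genes with a window and 42.9% of those tested. The letters TTTGAA of the cell cycle homology region were held by 5 of 35 (14.3%), against 20.2% of all genes with a window and 14.7% of those tested, on either strand.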
